A study of Homo sapiens with 12 samples.

Results

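The nuclear genes of respiratory complexes I, II and III were followed in MDA-MB-231, an established human triple negative breast cancer cell line, grown in 3D Matrigel cultures with and without Paclitaxel. The members were taken by name, as the nuclear subunits of the 3 complexes, and the list was drawn up with earlier results of these data known. All 48 were matched to 1 Ensembl identifier each among 63568 in the count table, and all 48 were among the 25249 genes that passed the filter on low counts. There were 35 members of complex I, 4 of complex II and 9 of complex III. The cells carried GFP, were labelled wild type and were suspended in Matrigel droplets on glass. Bulk total RNA was sequenced from 12 samples, a pair per condition. The 6 conditions were no drug with harvest on day 2, no drug with harvest on day 4, and 0.0005, 0.005, 0.05 or 0.5 μM of Paclitaxel, a drug that binds and stabilises microtubules. Per the labels the drug was added on day 2, and all 8 treated samples were taken on day 4. The study's methods name a later day of drug addition for its imaging cultures and describe the RNA experiment as a repeat of that procedure, so the length of exposure is uncertain. The 2 samples of a condition were described as biological replicates. The p-values for a single dose or for the days rest on the spread between such samples. When all treated libraries are pooled against all untreated ones, the spread also holds differences between doses and between days. In the fit of level on dose it also holds departures of the doses from a straight line. In bulk RNA, fewer cells of a type and less RNA per cell cannot be told apart.

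Complex I takes electrons from NADH and complex II takes them from succinate, and both pass them to ubiquinone in the inner mitochondrial membrane. Complex III passes electrons on from ubiquinol to cytochrome c, and complexes I and III pump protons as they do so. Complex I is built from an N module that oxidises NADH, a Q module that reduces ubiquinone and a membrane arm that moves protons, and its core membrane subunits and cytochrome b of complex III are encoded by mitochondrial DNA, while all subunits of complex II are nuclear. Nuclear respiratory genes are known for start sites that often carry motifs of NRF1, YY1 and ETS factors.

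Start site sequences from RefSeq on GRCh38.p14, running from 250 bases before to 50 bases after the start, were matched by symbol for 41 of the 48 members. The YY1 motif AAGATGGCG was found on either strand in 8 of the 41 (19.5%), beside 2.14% of 27305 genes. The 8 windows are shown because the letters were not used to choose the genes and because all 8 sit in the same orientation, beginning 11 to 26 bases after the start. Each window is written 5′ to 3′ along the gene, with the motif in capitals. The order is NDUFS4 (chr5:53560650-53560678, plus strand), NDUFA6 (chr22:42090729-42090757, minus strand), NDUFA7 (chr19:8321343-8321371, minus strand), NDUFS7 (chr19:1383914-1383942, plus strand), NDUFA9 (chr12:4649114-4649142, plus strand), NDUFB8 (chr10:100529836-100529864, minus strand), SDHB (chr1:17054004-17054032, minus strand) and UQCRC1 (chr3:48609605-48609633, minus strand).
NDUFS4: tgcctgcagcAAGATGGCGgcggtgtcaa
NDUFA6: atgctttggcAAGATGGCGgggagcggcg
NDUFA7: tcgcggacggAAGATGGCGtccgccaccc
NDUFS7: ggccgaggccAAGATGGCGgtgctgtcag
NDUFA9: attgtgggaaAAGATGGCGgctgccgcac
NDUFB8: gaagaaggtgAAGATGGCGgtggccaggg
SDHB: gtcaggagccAAGATGGCGgcggtggtcg
UQCRC1: ctgcagctggAAGATGGCGgcgtccgtgg

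The NRF1 motif GCGCANGCGC, in which N is any base, was found in 12 of the 41 members (29.3%) and in 6.98% of all genes. The ETS motif CCGGAAG was in 10 members (24.4%) and in 12.2% of all genes, and the GC box GGGCGG in 25 members (61.0%) and in 48.3%. Motifs were counted on both strands and may overlap, and a match is a description of letters, not of binding. The 250 bases before the start of SDHA (chr5:218070-218319, plus strand) are shown because they hold 4 NRF1 motifs, in capitals, at -166, -117, -68 and -19 from the start, and because SDHA is among the genes called below. Among the other genes called below, the window of UQCRFS1 held an NRF1 motif and a GC box, that of NDUFS7 a YY1 motif and a GC box, those of NDUFV2 and NDUFA10 a GC box, and that of NDUFV1 none of the 4.
SDHA: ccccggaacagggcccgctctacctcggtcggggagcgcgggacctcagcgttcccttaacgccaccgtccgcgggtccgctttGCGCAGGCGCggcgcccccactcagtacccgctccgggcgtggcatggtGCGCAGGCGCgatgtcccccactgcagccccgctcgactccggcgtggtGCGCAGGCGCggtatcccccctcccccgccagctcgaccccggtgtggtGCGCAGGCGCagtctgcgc

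The libraries held 38380629 to 79169121 counts each (median 65977095.5), and levels are given as CPM, counts scaled by the TMM library size. The label of the cells was checked with marker genes. All 7 genes known to be high in MDA-MB-231 were above 1 CPM in every library, VIM at 797 to 1366 CPM and CD44 at 237 to 388 CPM. AXL, another of them, lay lower in every treated library (240 to 347 CPM) than in any untreated one (403 to 844 CPM), as did 5.77% of all tested genes. Of 6 luminal and HER2 genes known to be low in these cells, ESR1 and PGR, the receptor genes absent from triple negative tumours, reached at most 0.460 and 0.0867 CPM, while 4 were above 1 CPM in every library. These were ERBB2 (26.6 to 52.4 CPM), FOXA1 (5.25 to 9.29), EPCAM (4.37 to 6.77) and GATA3 (1.58 to 4.44). The summed level of 8 fibroblast markers was 10.4 to 18.7 CPM in the untreated and 14.8 to 23.3 CPM in the treated libraries, and that of 5 leukocyte and endothelial markers was 0.119 to 0.900 and 0.791 to 1.36 CPM. No marker of these lists was at 0 in every library, and none of the 5 leukocyte and endothelial markers was above 1 CPM. Both sums ranged higher in the treated libraries, with overlap. COL3A1, PDGFRA and PTPRC were called higher there by edgeR (adjusted p = 0.00407, 0.000579 and 0.0409), beside 13.1% of all tested genes. These markers reached at most 1.52, 2.16 and 0.281 CPM. Their part in the differences between treated and untreated samples below was not tested.

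For the members, libraries of 1 condition could differ more than conditions did. The 48 members together made up 2489 CPM in replicate 2 at 0.05 μM, the lowest library, and 4644 CPM in replicate 2 of untreated day 2, the highest. The second library of untreated day 2 held the highest value of the 12 for 40 of 48 members (83.3%), beside 68.5% of 482 other protein-coding genes with a canonical transcript under 1 kb and 26.6% of 10608 genes with a mean of at least 10 CPM. The second library at 0.05 μM held the lowest value for 39 of 48 members (81.2%), beside 55.2% and 30% of the same 2 sets. Within the untreated day 2 pair 42 of 48 members were higher in replicate 2, by a median of 0.70 on the log2 CPM scale, and within the 0.05 μM pair 2 of 48 were higher in replicate 2, with a median of -0.42. On a common scale, the members' median distance, in log2 CPM, from their own 12-library means, the pairs differed by 0.60 on untreated day 2, 0.45 at 0.05 μM, 0.19 at 0.0005 μM, 0.18 on untreated day 4, 0.033 at 0.5 μM and 0.022 at 0.005 μM. The 5 condition means of day 4 spanned 0.24, less than the gap within either of the first 2 pairs and close to the pooled SD of 0.23 between replicates.

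**Figure D1:**
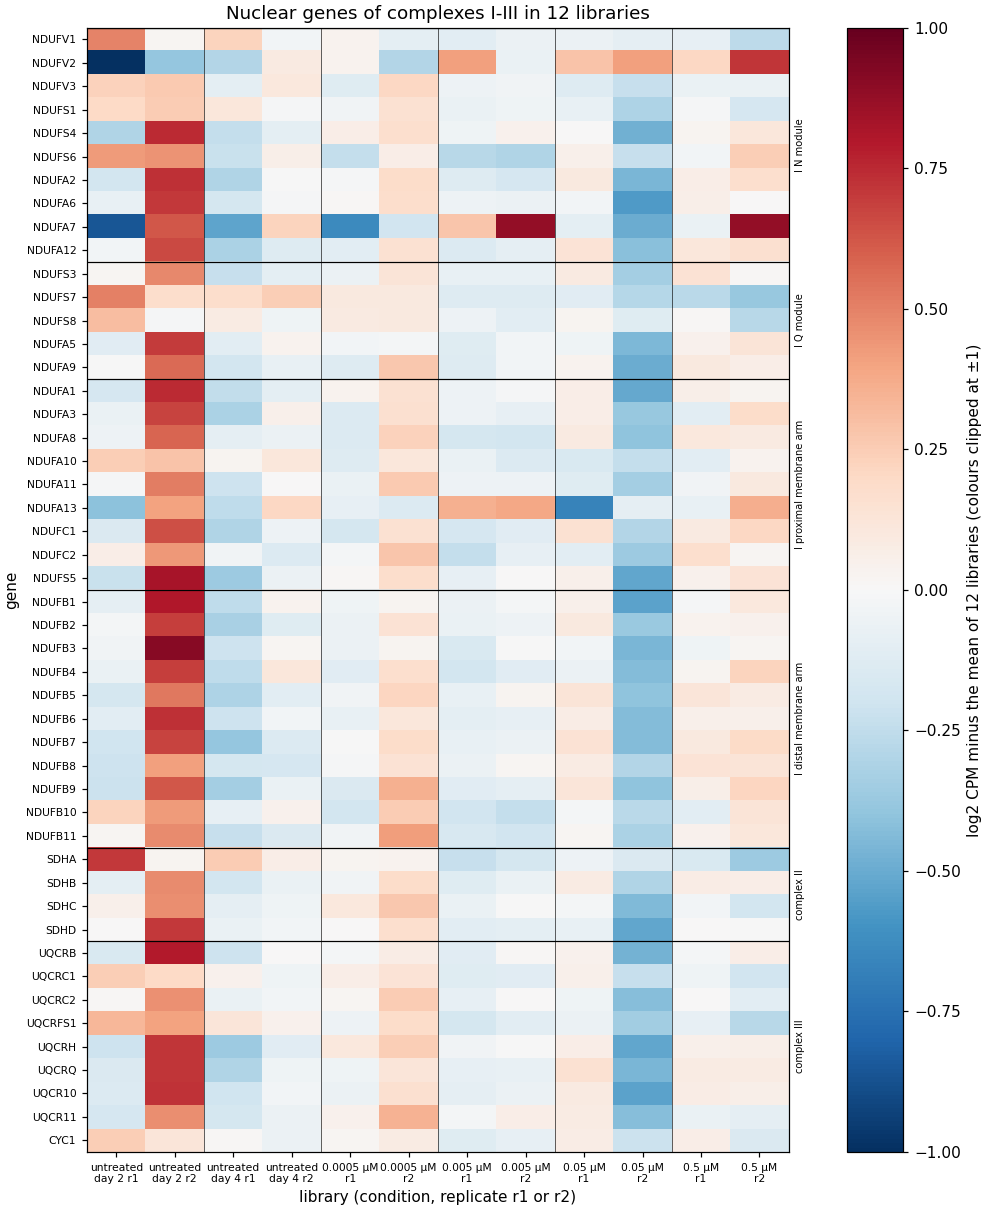
Log2 CPM minus the gene's own 12-library mean for each of the 48 genes (rows, grouped by module and complex) in each library (columns, 2 per condition), with red above and blue below the mean. The column of untreated day 2 replicate 2 is red and that of 0.05 μM replicate 2 is blue for most genes, while NDUFV2 has the opposite colour in both columns.

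Complex I, II and III moved together in both libraries. In replicate 2 of untreated day 2 the median deviation was 0.57 for complex I, 0.47 for complex II and 0.46 for complex III. In replicate 2 at 0.05 μM it was -0.38, -0.37 and -0.43. The other genes with short transcripts, 482 protein-coding genes under 1 kb, stood at 0.49 and -0.35 in the same libraries, and 2726 protein-coding genes over 5 kb stood at -0.05 and -0.06. The members are mostly short: the canonical transcript had a median length of 875.5 bases, 27 of the 48 were under 1 kb, and 5 were over 5 kb. The day 2 library was also the least deep (38380629 counts) and had the largest share of its counts on mitochondrially encoded genes (7.74%), and the 0.05 μM library had the smallest share (3.73%). The 6 members that were higher in replicate 1 of untreated day 2 were NDUFV1, NDUFS7, NDUFS8, SDHA, UQCRC1 and CYC1. Their gaps ran from -0.68 for SDHA to -0.05 for UQCRC1 on the log2 CPM scale, and the GC content of their canonical transcripts from 52.5% to 66.9%. The largest gaps the other way were 1.34 in NDUFA7 and 1.05 in NDUFS5. The part of transcript length, GC content, depth and mitochondrial share in these differences was not tested.

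**Figure D2:**
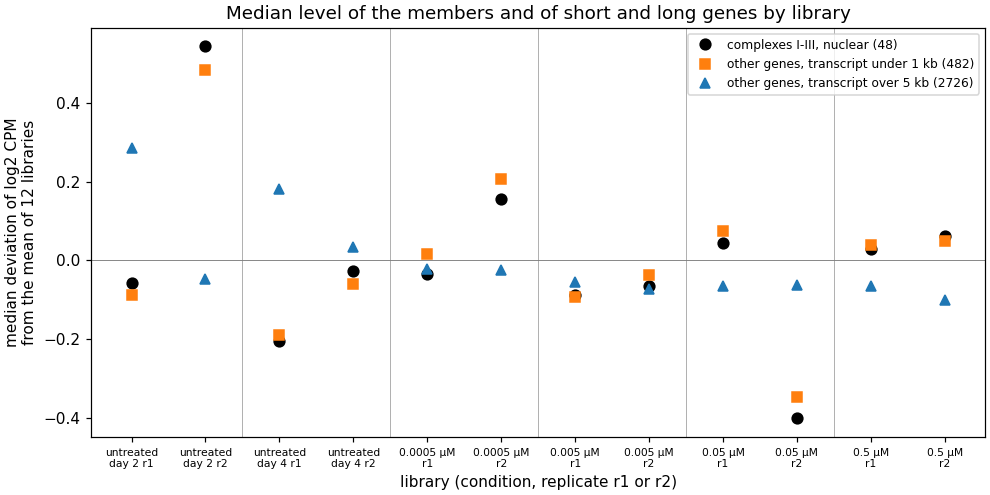
Median of log2 CPM minus each gene's 12-library mean (vertical axis) in each library (horizontal axis) for the 48 members (circles), 482 other protein-coding genes with a transcript under 1 kb (squares) and 2726 over 5 kb (triangles). Circles and squares lie close together in every library, with the highest at untreated day 2 replicate 2 (0.54 and 0.49) and the lowest at 0.05 μM replicate 2 (-0.40 and -0.35).

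Levels were compared between members per kilobase of canonical transcript. UQCRH, the hinge subunit of complex III, was highest with a mean of 314 CPM per kb over the 12 libraries, followed by NDUFS5 (255), an accessory subunit of the membrane arm of complex I, and NDUFA1 (192), another accessory subunit of that arm. The medians of the groups were 45.2 CPM per kb in the N module, 27.3 in the Q module, 42.7 in the proximal and 52.7 in the distal membrane arm, 65.1 in complex II and 66.9 in complex III. Complex II was the most even, with its 4 genes between 39.7 (SDHA) and 82.2 (SDHB). NDUFA7 was lowest at 0.615 CPM per kb. Canonical transcripts of several members are long, among them NDUFS1 with 11660 bases and NDUFA9 with 8356, and a long annotated transcript lowers the level per kb.

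Some of the lowest levels in complex I were of genes with overlapping annotation. In 5 members more than 50% of the canonical transcript lies in exons of another identifier on the same strand: NDUFV2 (90.0%), NDUFA13 (83.9%), NDUFA7 (77.9%), NDUFB8 (72.0%) and NDUFA11 (68.2%). These 5 ranged from 0.615 to 42.7 CPM per kb with a median of 4.81, and the other 43 from 1.91 to 314 with a median of 63.4. The match is not general: NDUFA9, the second lowest at 1.91 CPM per kb, has 11.7% overlap, and NDUFA11 lies at the median of the proximal membrane arm. The overlapping identifiers themselves had at most 3 counts in any library. NDUFV2, NDUFA13 and NDUFA7 were the only 3 members with a mean under 10 CPM. How reads in exons shared by several identifiers were assigned was not given in the sources used here, and the levels of these 5 genes are uncertain for that reason.

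**Figure D3:**
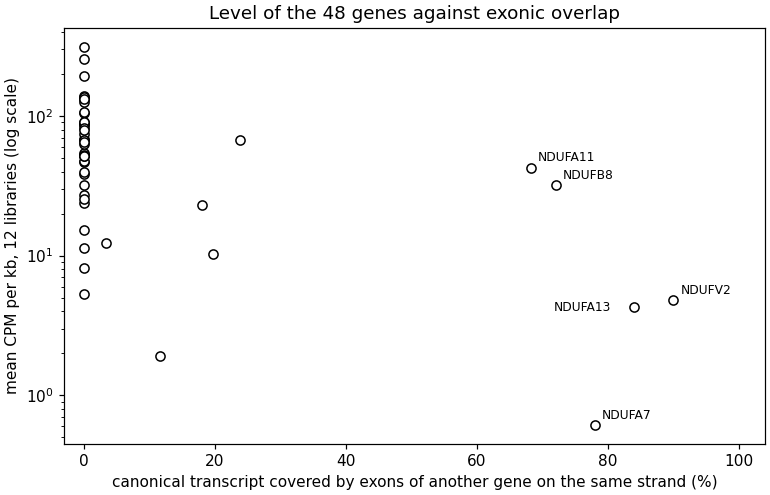
Mean CPM per kb over the 12 libraries (vertical, log scale) against the share of the canonical transcript covered by exons of another gene on the same strand (horizontal, %) for the 48 members. NDUFA7, NDUFA13 and NDUFV2, at 77.9% to 90.0% overlap, lie between 0.615 and 4.81, while NDUFA11 and NDUFB8 lie at 42.7 and 31.8.

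The comparison of the 8 treated with the 4 untreated samples asks whether Paclitaxel at any dose went with another level of these genes. Under edgeR's quasi-likelihood test, adjusted by the Benjamini-Hochberg method, 6 of 48 members (5 lower, 1 higher) were called at an adjusted p under 0.05. Of all 25249 tested genes 24.4% were called, 11.3% lower and 13.1% higher, and of genes with a mean of at least 10 CPM 25% were, 21.3% lower and 3.7% higher. The 6 are NDUFS7, NDUFV1, NDUFA10, SDHA and UQCRFS1, lower in treated samples, and NDUFV2, higher. Over all 48 members 44 lay lower, with a median log2 fold change of -0.14, beside -0.15 over genes with a mean of at least 10 CPM, of which 74.4% lay lower, and -0.002 over all tested genes. The treated samples are all of day 4 and 2 of the 4 untreated ones are of day 2, so drug and day cannot be told apart in this comparison. With the day 4 samples alone as the control none of the 48 was called, beside 13.6% of all genes.

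NDUFS7 carries the last iron-sulphur cluster before ubiquinone and lies in the Q module (chr19:1383526-1395588 on GRCh37, plus strand). It was at 28.8 and 23.0 CPM on untreated day 2 and at 23.0 and 24.1 on untreated day 4. In treated samples 0.0005 μM gave 21.8 and 21.8 CPM, 0.005 μM gave 18.6 and 18.7, 0.05 μM gave 18.8 and 16.7, and 0.5 μM gave 16.9 and 15.6. All 8 treated libraries lay below all 4 untreated ones, and no other member was without overlap in either direction. Of all tested genes 13.2% did not overlap in either direction, and 5.77% had every treated library below every untreated one. The log2 fold change was -0.41 (SE 0.11, adjusted p = 0.00984). The call was kept in 23 of 24 alternative settings, adjusted p from 0.00314 to 0.0777, and was lost with the day 4 samples alone as the control, where the log2 fold change was -0.33. A share of 37.3% of the NDUFS7 transcript is overlapped on the opposite strand by ENSG00000248015, which had a mean of 0.412 CPM, and strand was not stated for the counting.

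SDHA is the flavoprotein of complex II, which oxidises succinate (chr5:218418-257197 on GRCh37, plus strand). It was at 172 and 107 CPM on untreated day 2 and at 126 and 110 on untreated day 4. In treated samples the lowest, median and highest values were 81.6, 94.7 and 107 CPM. The groups touched at 107 CPM, with the lowest untreated library, replicate 2 of day 2, just under both libraries at 0.0005 μM. The log2 fold change was -0.42 (SE 0.12, adjusted p = 0.0178 by edgeR). The call was kept in 22 of 24 settings, and it was lost without replicate 1 of untreated day 2 (adjusted p = 0.107) and with the day 4 samples alone as the control (adjusted p = 0.0990). The genome holds pseudogenes similar to SDHA and to UQCRFS1, and only uniquely aligned reads were counted, so reads shared with such copies were not counted.

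UQCRFS1 is the Rieske iron-sulphur protein of complex III (chr19:29696227-29704058 on GRCh37, minus strand). It was at 123 and 130 CPM on untreated day 2, at 107 and 101 on untreated day 4, and at 77.2, 92.1 and 112 CPM as the lowest, median and highest of the treated libraries. The day 4 values lay within the range of the treated ones, and the day 2 values above it. Its log2 fold change was -0.34 (SE 0.11, adjusted p = 0.0265 by edgeR). With either day 2 library left out the call was lost, as it was with the day 4 samples alone as the control (log2 fold change -0.18, adjusted p = 0.327).

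NDUFV1 holds the FMN that accepts electrons from NADH (chr11:67373124-67380025 on GRCh37, plus strand). It was at 83.3 and 59.8 CPM on untreated day 2, at 69.0 and 58.0 on untreated day 4, and at 49.2, 55.7 and 60.4 CPM as the lowest, median and highest treated values. Both second untreated libraries lay just under the highest treated library, replicate 1 at 0.0005 μM. The log2 fold change was -0.28 (SE 0.10, adjusted p = 0.0451 by edgeR), and the call was kept in 11 of 24 settings. Without replicate 1 of untreated day 2 it was -0.17 (adjusted p = 0.218), and with the day 4 samples alone as the control -0.18 (adjusted p = 0.216).

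NDUFA10, an accessory subunit of the proximal membrane arm (chr2:240831867-240965160 on GRCh37, minus strand), was at 64.9 and 66.9 CPM on untreated day 2, at 55.9 and 59.1 on untreated day 4, and at 46.5, 50.6 and 59.3 CPM as the lowest, median and highest treated values. Untreated day 4 overlapped the treated libraries and untreated day 2 did not. The log2 fold change was -0.25 (SE 0.09, adjusted p = 0.0473 by edgeR), and the call was kept in 9 of 24 settings. With offsets for GC content and length the log2 fold change was -0.16 (adjusted p = 0.190). Without replicate 1 of untreated day 2 it was -0.23 (adjusted p = 0.111), without replicate 2 -0.19 (adjusted p = 0.11), and with the day 4 samples alone as the control -0.14 (adjusted p = 0.362).

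NDUFV2 carries an iron-sulphur cluster next to NDUFV1 and was the 1 member called higher (chr18:9102628-9134343 on GRCh37, plus strand). It was at 1.83 and 3.01 CPM on untreated day 2, at 3.21 and 4.18 on untreated day 4, and at 3.21, 4.67 and 6.46 CPM as the lowest, median and highest treated values. Both day 2 libraries and replicate 1 of day 4 lay below all treated ones, the last at 3.209 beside 3.214 CPM, and replicate 2 of day 4 lay among them. The log2 fold change was 0.61 (SE 0.20, adjusted p = 0.0363 by edgeR), kept in 13 of 24 settings. Without replicate 1 of untreated day 2 it was 0.41 (adjusted p = 0.141), and with the day 4 samples alone as the control 0.34 (adjusted p = 0.301). Its transcript is the most overlapped of the 48, as given above.

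**Figure D4:**
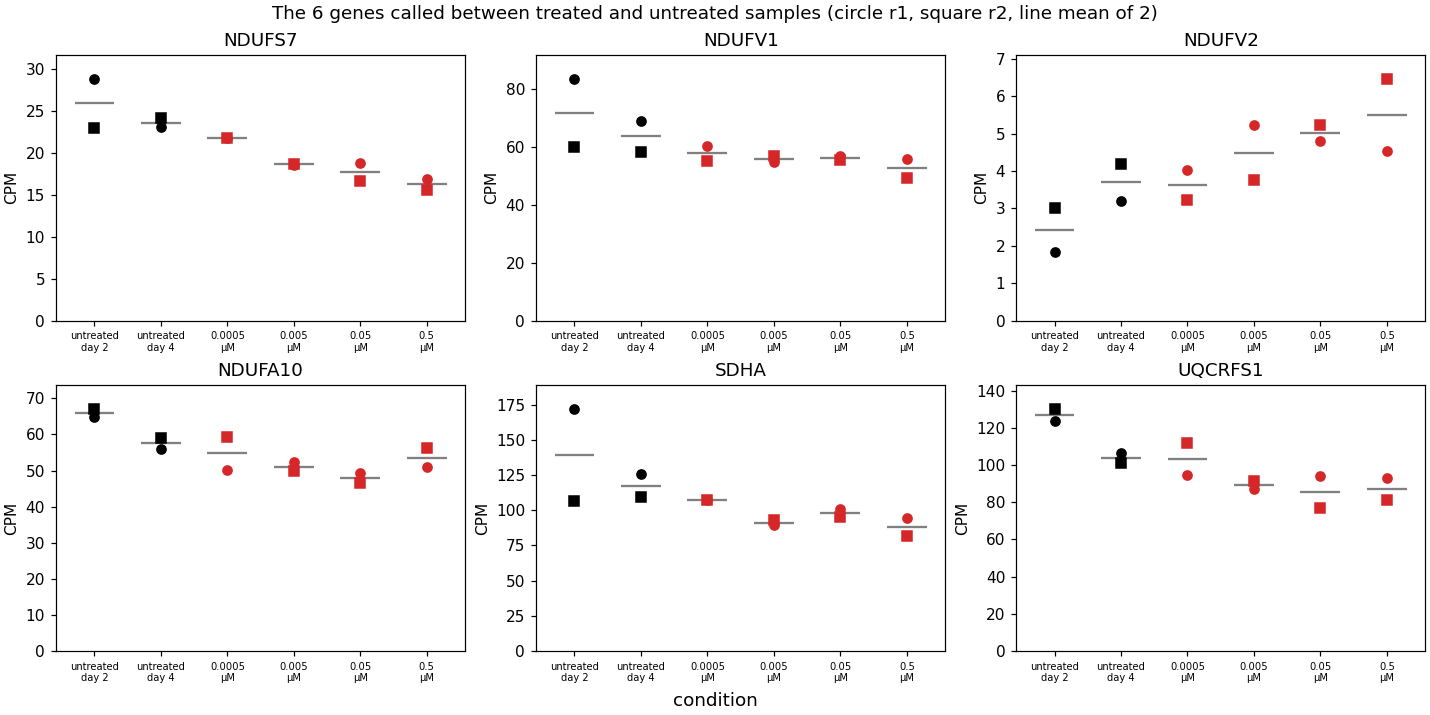
CPM (vertical, from 0) of the 6 genes called between treated and untreated samples in the 2 untreated (black) and 4 treated (red) conditions, with circles for replicate 1, squares for replicate 2 and a line at the mean of 2. NDUFS7 alone has all 8 treated values (15.6 to 21.8) below all 4 untreated ones (23.0 to 28.8).

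The 42 members that were not called overlapped between treated and untreated libraries, as did 5 of the 6 called ones, while 13.2% of all tested genes did not. By module, 1 of 10 N module genes was called higher and 1 lower, 1 of 5 in the Q module, 1 of 9 in the proximal membrane arm, 0 of 11 in the distal membrane arm, 1 of 4 in complex II and 1 of 9 in complex III, all of these calls after the first being lower, beside 11.3% of all tested genes called lower and 13.1% higher. The distal arm of complex I, accessory subunits around the far proton channels, had a median log2 fold change of -0.13 and ranged from -0.32 to 0.04.

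The other genes with a catalytic role or a cofactor all overlapped between the groups. NDUFS1, the large iron-sulphur subunit of the N module, was at 142, 160 and 170 CPM as the lowest, median and highest of the untreated libraries and at 116, 138 and 159 of the treated ones (log2 fold change -0.21, adjusted p = 0.125 by edgeR). In the Q module, NDUFS8, which carries 2 iron-sulphur clusters, was at 52.9, 55.9 and 67.5 CPM untreated and 45.1, 53.9 and 58.4 treated (-0.12, adjusted p = 0.358). NDUFS3, a core subunit of the same module, was at 79.9, 91.0 and 130 CPM untreated and 73.8, 92.1 and 103 treated (-0.08, adjusted p = 0.667). The untreated maximum was replicate 2 of day 2 in NDUFS1 and NDUFS3 and replicate 1 of day 2 in NDUFS8.

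In complex II SDHA was the 1 gene of 4 called with all libraries and no offsets. SDHB, the iron-sulphur protein, was at 72.7, 78.1 and 115 CPM untreated and 67.2, 83.6 and 93.9 treated, with a log2 fold change of -0.06 (adjusted p = 0.745 by edgeR). The membrane anchors SDHC and SDHD stood at -0.15 (adjusted p = 0.425) and -0.26 (adjusted p = 0.194), with untreated medians of 82.2 and 87.2 CPM and treated medians of 80.7 and 85.7. With offsets for GC content and length SDHD was called lower (-0.23, adjusted p = 0.0265), beside 27.2% of all genes. In all 3 the highest library was replicate 2 of untreated day 2 and the lowest replicate 2 at 0.05 μM, while SDHA was highest in replicate 1 of untreated day 2 and lowest in replicate 2 at 0.5 μM. No test of a difference between these genes was made.

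In complex III, CYC1, cytochrome c1, was at 150, 164 and 185 CPM untreated and 135, 153 and 165 treated (log2 fold change -0.12, adjusted p = 0.371 by edgeR). The core proteins UQCRC1 and UQCRC2 stood at -0.17 (adjusted p = 0.237) and -0.15 (adjusted p = 0.405), and UQCRB, which lies near a quinone site, at -0.22 (adjusted p = 0.341). UQCRC1 was at 186 to 258 CPM over the 12 libraries. Over the 48 members CYC1 and UQCRC1 were the steadiest, with 0.46 and 0.48 between their highest and lowest libraries on the log2 CPM scale, and NDUFV2 the least steady with 1.80.

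The direction over the members rested on 1 library, replicate 2 of untreated day 2. Without it the median log2 fold change between treated and untreated samples turned to 0.08, with 35 members higher and 13 lower, and 3 members were called, all lower (NDUFV1, NDUFS7 and SDHA), beside 26.4% of all genes. Without replicate 1 of untreated day 2 only NDUFS7 was called (median -0.18), beside 15.6% of all genes, and without replicate 2 at 0.05 μM the median stayed at -0.12. With the day 4 samples alone as the control the median was 0.07 and 35 members lay higher, among them NDUFB7 (0.29), NDUFA12 (0.22), NDUFS3 (0.16) and SDHB (0.13), with none called, beside 13.6% of all genes. With the second libraries of untreated day 2 and of 0.05 μM left out together, a setting chosen after the data were seen, the median was 0.13 and 10 members were called, 7 higher (NDUFS4, NDUFA1, NDUFS5, NDUFB5, NDUFB7, NDUFB8 and UQCRH) and 3 lower (NDUFV1, NDUFS7 and SDHA), beside 26.2% of all genes. NDUFB7, an accessory subunit of the distal arm, went from -0.03 with all libraries to 0.33 (adjusted p = 0.0163 by edgeR). NDUFV1, NDUFS7 and SDHA were thus called lower with and without both libraries, though none of the 3 with the day 4 samples alone as the control.

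Each dose was next set against untreated day 4, a control of 2 samples that all 4 comparisons share. None of the 48 members was called at 0.0005, 0.005 or 0.05 μM by edgeR's quasi-likelihood test, beside 2.34%, 3.28% and 8.32% of all tested genes. At an unadjusted p under 0.05 the counts were 0, 1 (NDUFS7, lower) and 1 (NDUFS7, lower), beside 17%, 18.7% and 23.7% of all tested genes. DESeq2 also called 0 at each of these doses, beside 4.42%, 4.93% and 9.68% of all genes by that tool. At 0.5 μM 1 member was called, NDUFS7, lower, beside 6.32% of all tested genes in either direction and 1.96% lower. DESeq2 called the same 1, beside 8.24% of all genes by that tool. A median member had an SE of 0.22 on the log2 scale in each of these comparisons.

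NDUFS7 at 0.5 μM (16.9 and 15.6 CPM) lay below untreated day 4 (23.0 and 24.1 CPM), with a log2 fold change of -0.53 (SE 0.15, adjusted p = 0.0495). The adjusted p sits at the threshold: the call was kept in 13 of 24 settings, lost when any 1 of the 10 libraries of day 4 was left out, and adjusted p ranged from 0.00240 to 0.342 over the settings. The 3 lower doses gave -0.11 (SE 0.14, adjusted p = 0.723), -0.34 (0.14, 0.228) and -0.41 (0.14, 0.107). Side by side, SDHA was at -0.13, -0.37, -0.26 and -0.42 from the lowest to the highest dose, with adjusted p from 0.217 to 0.763. With the second libraries of untreated day 2 and 0.05 μM left out, SDHA at 0.5 μM was called (log2 fold change -0.42, adjusted p = 0.0122), as were NDUFB7 and NDUFA12, an accessory subunit of the N module, both higher (0.40 and 0.35). With NDUFS7 these made 4 of 48 members, beside 21% of all genes in that fit.

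The medians over the 48 members from the lowest to the highest dose were 0.15, 0.03, -0.07 and 0.17, where all tested genes had -0.01, 0.04, -0.01 and 0.04 and genes with a mean of at least 10 CPM had -0.04, -0.12, -0.11 and -0.11. With both untreated days as the control the members' medians were -0.06, -0.20, -0.31 and -0.08, so the direction at 3 of the 4 doses depended on the control. With the day 4 control, at 0.5 μM 36 members lay higher and 12 lower. The 5 highest there were NDUFV2 and NDUFA7 (0.57 each), NDUFB7 (0.41), NDUFA12 (0.36) and NDUFB9 (0.34), with SEs of 0.22 to 0.51, and none was called. NDUFA7, an N module accessory subunit, was at 0.183 to 0.607 CPM over all libraries and its 12 values overlapped between conditions. The 5 lowest at 0.5 μM were NDUFS7, SDHA (-0.42), NDUFV1 (-0.27), UQCRFS1 (-0.26) and NDUFS8 (-0.14). All 11 genes of the distal arm lay higher at 0.5 μM, from 0.03 to 0.41, and also at 0.0005 μM, from 0.07 to 0.39, none of them called. At 0.005 μM 9 of the 11 lay higher (median 0.06) and at 0.05 μM 6 of them (median 0.05). The 11 nuclear subunits of complex IV also all lay higher at 0.0005 and 0.5 μM, with medians of 0.32 and 0.29. Of 13 tricarboxylic acid cycle enzymes 4 and 2 lay higher at these doses. At 0.05 μM the median of the 48 members went from -0.31 without replicate 1 to 0.12 without replicate 2, so the sign followed the library kept.

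**Figure D5:**
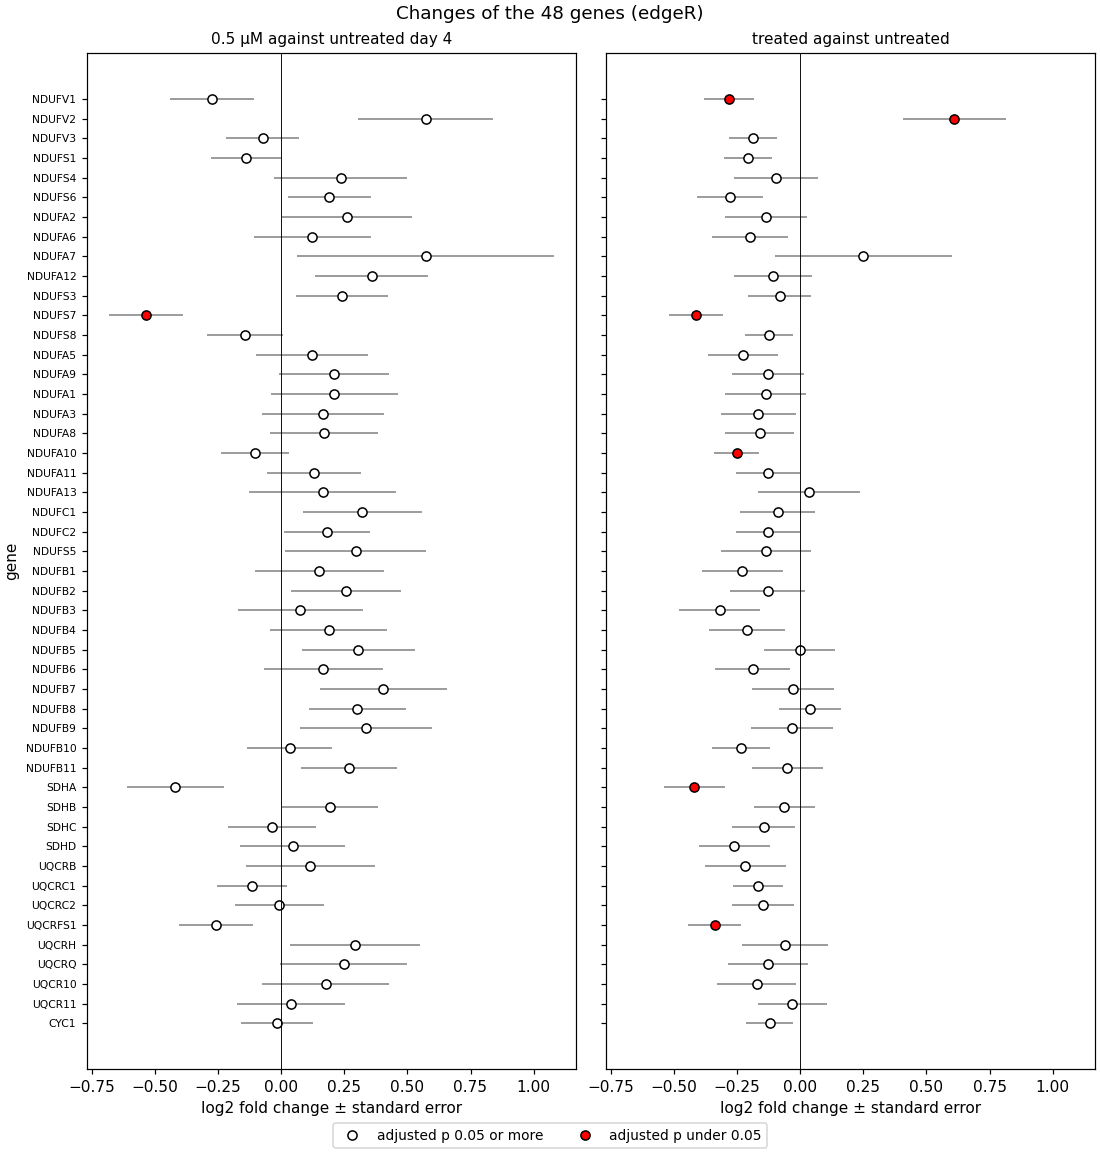
Log2 fold change (points) with its standard error (bars) of the 48 genes at 0.5 μM against untreated day 4 (left) and in all treated against all untreated samples (right), with filled points called at an adjusted p under 0.05 by edgeR. On the left only NDUFS7 (-0.53) is filled and 36 points lie above 0, and on the right 6 points are filled and 44 lie below 0.

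Among the 8 treated samples the slope on log10 dose was tested. None of the 48 members was called by edgeR, beside 3.06% of all tested genes, and 1 higher (NDUFV2) and 2 lower (NDUFS7 and SDHC) had an unadjusted p under 0.05, beside 18.3% of all tested genes. DESeq2 called 1, NDUFS7, beside 7.78% of all genes by that tool. The slope of NDUFS7 was -0.13 log2 units per 10-fold dose (SE 0.04, adjusted p = 0.0571). SDHC had a slope of -0.10 (SE 0.05, adjusted p = 0.243) and NDUFV2 one of 0.19 (SE 0.06, adjusted p = 0.118). The median slope of the members was -0.01, beside -0.02 over genes with a mean of at least 10 CPM and 0.01 over all tested genes.

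Untreated day 4 was compared with untreated day 2 to see the change with time in culture. None of the 48 members was called by edgeR, beside 0.325% of all tested genes, and DESeq2 called 0, beside 1.17% of all genes by that tool. At an unadjusted p under 0.05 there were 7 members lower and 1 higher, beside 4.71% of all tested genes lower and 5.29% higher. On day 4, 47 of 48 lay lower, with a median log2 fold change of -0.42, beside -0.10 over genes with a mean of at least 10 CPM. The exception was NDUFV2 (0.64, SE 0.28, adjusted p = 0.485). The value with the smallest p was NDUFS6, an N module subunit, at 62.0 and 63.2 CPM on day 2 and 39.7 and 48.0 on day 4, a log2 fold change of -0.51 (SE 0.17, adjusted p = 0.345).

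The size of this difference depended on which day 2 library was kept. Without replicate 1 of untreated day 2 the median was -0.68 and 32 members were called, all lower, beside 10% of all genes. Without replicate 2 the median was -0.02 and 2 were called, NDUFV2 higher and SDHA lower, beside 7.03% of all genes. In each of these fits the lone day 2 library is assumed to vary like the libraries of the other conditions. UQCRB shows the spread: it was at 189 and 366 CPM on day 2 and at 183 and 212 on day 4. SDHB was at 77.3 and 115 CPM on day 2 and at 72.7 and 78.9 on day 4, and UQCRC2 at 152 and 207 and at 144 and 148. In each of these 3 genes replicate 2 of day 2 stood above the other 3 untreated libraries, which lay near one another.

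Neighbouring genes of the pathway were counted from lists in the same fits. Between treated and untreated samples, 2 of the 8 mitochondrially encoded subunits of complexes I and III were called lower, MT-ND2 (-0.88, SE 0.22, adjusted p = 0.00832 by edgeR) and MT-ND3 (-0.52, 0.17, 0.0299), both membrane subunits of complex I. MT-ND2 was called with any 1 library left out and MT-ND3 was not without replicate 2 of untreated day 2 (-0.25, adjusted p = 0.169). With the second libraries of untreated day 2 and 0.05 μM left out together neither was called (-0.52 and -0.19, adjusted p = 0.0545 and 0.185), nor with the day 4 samples alone as the control (-0.53 and -0.31, adjusted p = 0.146 and 0.184). Without replicate 2 of untreated day 2 the value of MT-ND2 was -0.58. Of 26 assembly factors 4 were called lower and 1 higher. ACAD9, which acts in building the membrane arm, fell by 0.52 on the log2 scale (SE 0.08, adjusted p = 0.000341 by edgeR), and TTC19, a factor of complex III, by 0.33 (SE 0.08, adjusted p = 0.00705). The other two lower ones were COA1 (-0.38) and NDUFAF8 (-0.42), and the higher one was UQCC1 (0.26), named after its value was seen. ACAD9 was also called at 0.05 μM (-0.48, SE 0.13, adjusted p = 0.0399 by edgeR), the only assembly factor called at a single dose, where the call was lost when any 1 of the 10 libraries of day 4 was left out. Between treated and untreated samples ACAD9 and TTC19 were called with any 1 library left out and with both second libraries left out (-0.49 and -0.29), while COA1 and NDUFAF8 were not called in the latter fit (-0.21 and -0.14). The call of UQCC1 was kept with 2 of the 12 libraries left out in turn. With the day 4 samples alone as the control ACAD9 was called (-0.41, adjusted p = 0.00623) and TTC19 was not (-0.25, adjusted p = 0.0675). With the same control COA1 (-0.40, adjusted p = 0.0323) and UQCC1 (0.34, adjusted p = 0.0448) were called and NDUFAF8 was not (-0.12).

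Of 13 tricarboxylic acid cycle enzymes, which feed NADH and succinate to the chain, 5 were called lower and all 13 lay lower, with a median of -0.30, the lowest median of these lists after the mitochondrially encoded subunits (-0.33). The 4 with the smallest adjusted p were SUCLG2 (-0.37) and SUCLA2 (-0.44), subunits of succinate-CoA ligase, FH (-0.46), fumarase, and DLD (-0.35), the lipoamide dehydrogenase. Without replicate 2 of untreated day 2 SUCLA2, FH and DLD were no longer called (-0.24, -0.26 and -0.22). The list still had 5 of 13 called lower in that fit, with a median of -0.26, beside 26.4% of all genes. SUCLG2 was called with any 1 library left out and with the day 4 samples alone as the control (-0.31, adjusted p = 0.0462). With that control SUCLA2, FH and DLD were not called. None of 11 nuclear subunits of complex IV and none of 15 of ATP synthase was called, with medians of -0.01 and -0.17, and at an unadjusted p under 0.05 there were 0 and 1, beside 37% of all tested genes. With both second libraries left out 8 of the complex IV and 3 of the ATP synthase subunits were called higher, with medians of 0.31 and 0.12, beside 26.2% of all genes in that fit. Of 11 regulators of mitochondrial biogenesis NRF1 was called lower in treated samples (-0.32, SE 0.08, adjusted p = 0.0108 by edgeR), as it was with any 1 library left out but not with the day 4 samples alone as the control (-0.23, adjusted p = 0.123). PPARGC1B, a coactivator, was called with a rising slope on dose (0.34 per 10-fold, SE 0.07, adjusted p = 0.0171 by edgeR), lost without either library at 0.0005 μM (adjusted p up to 0.144). These settings for the lists were chosen after the data were seen. With all libraries the counts for these lists between treated and untreated samples stand beside the 24.4% of all tested genes given above. The share of all genes was 13.6% with the day 4 samples alone as the control, 8.32% at 0.05 μM and 3.06% for the slope. The lists use the same untreated libraries as the members.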

How the data were processed

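RNA of 12 samples was measured, 2 for each of 6 conditions. The authors trimmed reads with Trimmomatic 0.39, checked them with FastQC 0.11.9, aligned them with STAR 2.7.5 on GRCh37, discarded reads without a unique position and counted exons with Rsubread, and the deposited values are integer counts per Ensembl identifier, neither normalized nor pooled. Strand and the handling of overlapping genes were not given in the sources used here. The single-sample columns were identical to the series table in all 12 cases. Identifiers without a symbol held 9.30% to 11.2% of the counts.

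Analyses used R 4.3.3, edgeR 4.0.16, limma 3.58.1 and DESeq2 1.42.0. Genes were kept by filterByExpr over the 6 conditions, scaled by TMM and fitted with robust quasi-likelihood models on the whole table, two-sided, with Benjamini-Hochberg adjustment over 25249 genes and calls at an adjusted p under 0.05. Doses and days were tested in 1 model of 12 samples, treated against untreated and the dose slope in models of their own. Each SE was obtained as the size of the log2 fold change over the root of F. A fit of 2 against 2 samples alone could not pass an exact permutation test, whose smallest p is 0.333. Totals of 38380629 to 79169121 counts set the counting error, and the lowest count of any member in a library was 13 (NDUFA7). The procedure was tested on simulated counts.

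Members and lists were chosen with earlier results of these data known, and no p-value was adjusted over a list. Members are named if called in any comparison, if among the 5 highest or lowest at 0.5 μM, or if catalytic or cofactor-bearing. NDUFS6 and members named in alternative settings were added after their values were seen. Context genes are named if called, up to 4 a list. PECAM1 was not matched. Lengths and overlaps came from canonical transcripts of GENCODE on GRCh37, and start site sequences from RefSeq on GRCh38.p14.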

Additional observations from a re-analysis of the deposited data

Results flagged for a closer look

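The median deviation of the members was tested for samples far from the rest in the 8 treated and the 4 untreated samples by Dixon's gap. Replicate 2 at 0.05 μM lay at -0.40 on the log2 scale, with the nearest of the other 7 treated samples at -0.09, a gap of 0.563 of the whole range. Chance flags about 1 group in 20 in each such test. The members' summed CPM and the CPM of each called gene were tested in the same way, and no sample was flagged there. In the summed CPM replicate 2 at 0.05 μM had a gap of 0.459 of the range. Replicate 2 of untreated day 2 (0.54, with the nearest at -0.03) had a gap of 0.762 of the range of 4 samples and did not pass.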

How the results depend on the processing

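The numbers of members called and the median log2 fold changes were recomputed in up to 24 settings. The share of all genes called in the same fit is given in brackets. At 0.0005 μM 2 members were called with the 4 samples alone (12%) and with both second libraries (of untreated day 2 and of 0.05 μM, the libraries farthest from their replicates) left out (11.9%), a setting chosen after seeing the data. At 0.005 μM 1 was called with GC and length offsets (7.16%), with those offsets and the replicate block (7.87%), and with the 4 samples alone (11%), and 2 without both second libraries (13.5%). At 0.05 μM 1 was called with either kind of offset fit (13.7% and 14%) and with both untreated days as the control (14.9%), where the median was -0.31, and at 0.5 μM -0.076. At 0.5 μM 0 were called with a filter of at least 1 count (5.74%) and 4 without both second libraries (21%). Between treated and untreated samples 3 were called with that filter (11.7%), 10 with GC and length offsets, 9 of them lower (27.2%), 0 with day 4 alone as the control (13.6%), and 10 without both second libraries (26.2%, median 0.13), where NDUFB7 turned to 0.33. The day comparison gave 2 calls (7.98%) and a median of -0.016 without both second libraries. The slope gave 1 call, NDUFS7, with DESeq2, RLE, a mean count of at least 10, both offset fits and both second libraries left out (3.39% to 7.78%). The cause of these shifts was not tested.

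Leaving out each library in turn gave 0 to 0 calls and medians of 0.06 to 0.27 at 0.0005 μM, 0 to 1 and -0.05 to 0.11 at 0.005 μM, 0 to 1 and -0.31 to 0.12 at 0.05 μM, 0 to 2 and 0.05 to 0.25 at 0.5 μM, 0 to 32 and -0.68 to -0.017 between days, 1 to 5 and -0.23 to 0.08 between treated and untreated samples, and 0 to 1 and -0.039 to 0.025 for the slope. In the same order, the shares of all genes called ran from 0.536% to 9.52%, 0.316% to 12.4%, 1.19% to 18.1%, 0.48% to 18.8%, 0.175% to 10%, 15.6% to 26.4% and 0.46% to 3.73%. Calls at 0.005, 0.05 and 0.5 μM rose when either day 2 library was left out. The slope gave its 1 call without replicate 2 at 0.05 μM.

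Over 15 pairs of conditions the correlation between same-numbered samples ran from -0.59 to 0.71 (median 0.15), and 8 were over 0.1. With 2 samples per condition these values do not settle whether the replicate numbers pair the samples. With the number as a replicate block, 1 member was called at 0.5 μM (7.15% of all genes) and the median there was 0.17, and NDUFA10 between treated and untreated samples had an adjusted p of 0.0503. Summing identifiers of 1 symbol changed the counts of 0 members.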
